A study of Mus musculus with 17 samples.

Results

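The transcripts of 31 epithelial junction genes were followed across 17 RNA-seq libraries of mouse colon cell preparations. The genes were chosen as a list of symbols. They encode 9 claudins, 4 further membrane proteins and 3 plaque proteins of the tight junction, 1 kinase that regulates it, 4 proteins of the adherens junction, 6 of the desmosome, and 4 adhesion molecules of the lateral membrane and brush border. All 31 were found among the 27179 gene numbers of the deposited tables, and all 31 passed the filter on low counts in every fit. The libraries came from C57BL/6 mice at 8 weeks of age, either wild type or deficient in MCJ, a protein of the inner mitochondrial membrane encoded by Dnajc15. Condition NN names no treatment and holds 3 wild-type and 2 MCJ-deficient libraries. Condition NP is dextran sulfate sodium (DSS) for 6 days, with 3 libraries of each genotype. Condition PP is a broad-spectrum antibiotic for 7 days and then DSS for 6 days, again with 3 libraries of each genotype. DSS is given to mice to injure the colonic epithelium and so to provoke colitis. The labels number the mice of each group, and each library was treated as 1 mouse; p-values measure the spread between these libraries.

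Epithelial cells are held together by a belt of junctions below their free surface. The tight junction seals the space between cells: claudins form its strands, some of them tightening the seal and others forming pores for ions or water, while plaque proteins tie the strands to the actin cytoskeleton. The adherens junction below it joins cells through E-cadherin and the catenins, and desmosomes couple the intermediate filaments of neighbouring cells. In the colon, claudin make-up differs along the crypt, and the pore-forming Cldn2 is known for rising in inflamed epithelium.

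The preparations are labelled as colon macrophages, obtained by washing and collagenase digestion, and the labels name no sorting step. The junction genes summed to between 5583 and 6358 CPM in NN libraries, between 4599 and 5381 in NP and between 2925 and 4685 in PP. CPM are counts per 1000000 counts of the library, scaled with TMM factors, which make the bulk of genes comparable between libraries. A reference list of 18 epithelial genes, none of them a junction gene, summed to between 15367 and 20879 CPM in NN, between 10604 and 13210 in NP and between 5599 and 11363 in PP. The 10 macrophage markers together reached only 9.05 to 24.8 CPM in NN, with Cd163 at 0 counts in all 5 libraries. They ranged from 22.6 to 381 CPM in NP and from 219 to 1237 in PP. The 7 neutrophil markers ranged from 0.9 to 4.31 CPM in NN, with Cxcr2 at 0 counts in all 5, from 221 to 568 in NP and from 208 to 5198 in PP. In bulk RNA, fewer epithelial cells and less junction RNA per cell cannot be told apart. Library 11 of the wild-type PP group stood apart, with a macrophage sum of 219 CPM against 1199 and 1237 in the other two. Its junction sum of 4685 CPM stood against 2925 and 2946. The MCJ-deficient PP library 23 stood apart in its neutrophil sum, 5198 CPM against 1097 and 1456, and its junction sum was 2986 CPM against 4287 and 4617. Totals ran from 29194744 to 37083344 counts, and mitochondrial transcripts took 23.12 to 50.37% of them. Dnajc15 counts lay between 359 and 1534 in wild-type and between 21 and 121 in MCJ-deficient libraries. Xist, a transcript of female cells, had at least 1000 counts in 4 of 5 NN, 1 of 6 NP and 0 of 6 PP libraries, so the sexes were unevenly spread over the conditions.

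Levels were compared between genes as CPM per kilobase of exon. Over the 5 NN libraries the highest was Epcam, a cell-surface adhesion molecule that stabilises claudins, at 810 ± 48.2 (SD, n = 5). The sealing claudin Cldn3 followed at 366 ± 97.3 CPM per kilobase and Cldn7, which binds Epcam in the lateral membrane, at 365 ± 85.7, a difference far below their spread. Cldn4, another sealing claudin, reached 105 ± 29 and Cldn23 97.9 ± 18.9 CPM per kilobase, again within their spread. The protocadherin Cdhr5, which links the tips of brush border microvilli, stood at 91.3 ± 12.3, its partner Cdhr2 at 34.7 ± 4.03, and the intestinal cadherin Cdh17 at 76.0 ± 17. E-cadherin (Cdh1) was at 38 ± 16.1 and beta-catenin (Ctnnb1) at 50.8 ± 9.98 CPM per kilobase. The pore claudin Cldn15 stood at 25.3 ± 9.71 and Cldn2 at 7.41 ± 2.93 CPM per kilobase. The lowest were Mylk, the myosin light chain kinase that opens tight junctions by contracting the actin ring, at 1.85 ± 0.372, and Cldn1 at 0.253 ± 0.502. In PP libraries Cldn2 reached 17.1 CPM per kilobase (range 12.8 to 24.4, 6 libraries). That put it next to Cldn15 at 17.9 (6.61 to 34.9) and Cdhr2 at 16.4 (11.0 to 23.3), with overlapping ranges.

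**Figure D1:**
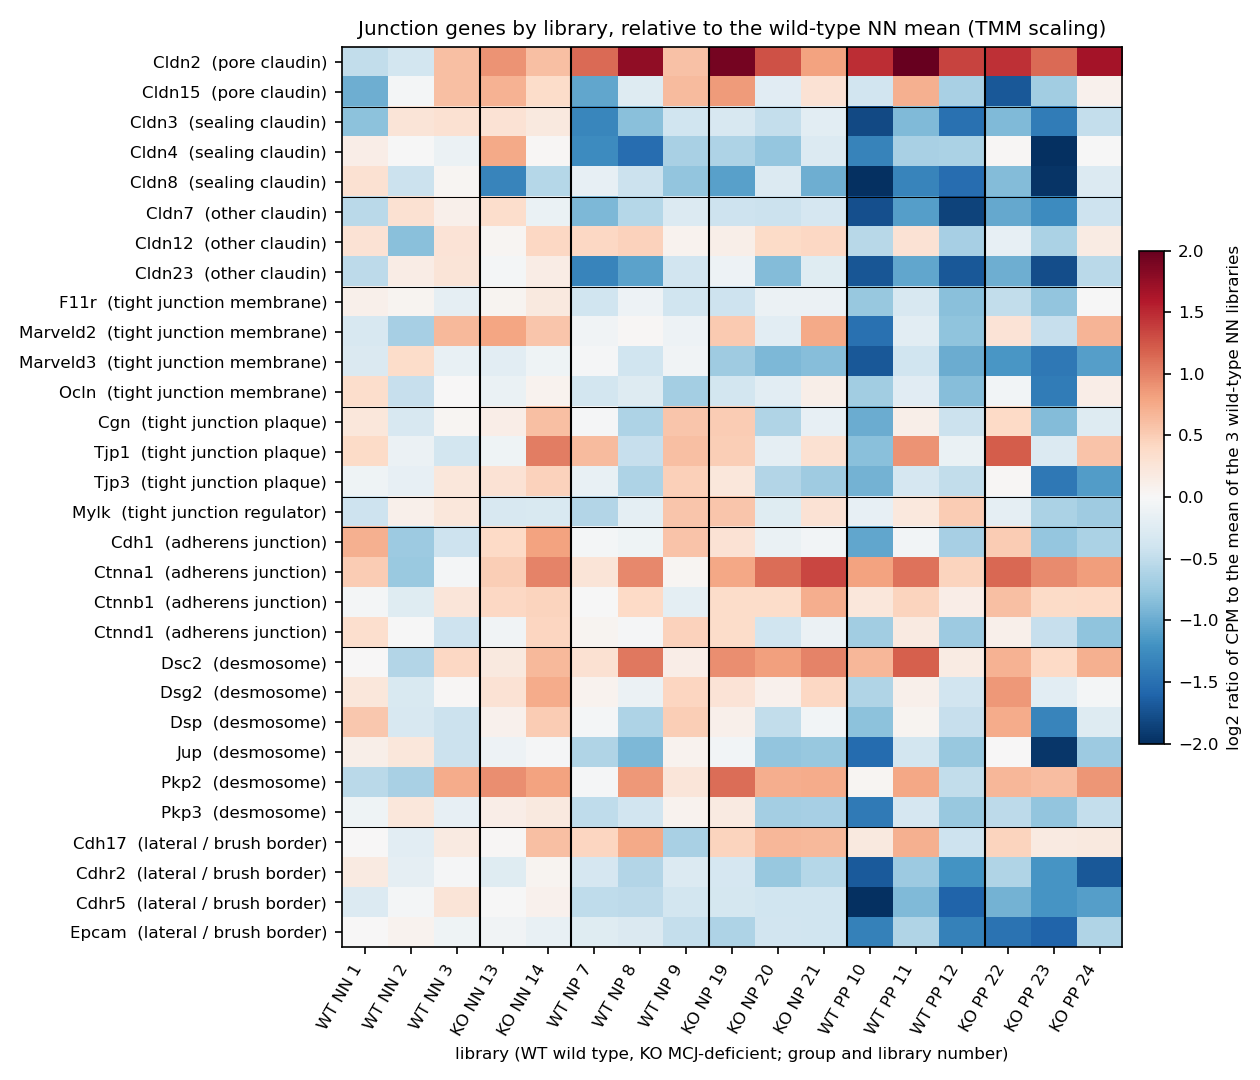
Each row is a junction gene, grouped by role, and each column a library; colour gives the log2 ratio of its TMM-scaled CPM to the mean of the 3 wild-type NN libraries, from -2 to 2. Cldn1 is left out because several libraries hold 0 counts. Cldn2 is red in every NP and PP library, while Epcam, Cdhr2, Cdhr5, Cldn7, Cldn23 and Marveld3 are blue in every PP library; scaled to epithelial reference genes, none of these 6 is called lower.

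Promoter windows of 21 of the 31 genes were present in the RefSeq table (GRCm38.p6), each running from 250 bases before to 50 bases after the start of transcription. Those of Cldn2, Cldn3, Cdhr5 and Epcam are printed because the first had the highest fold among genes with counts in every library and the others were among the falls after antibiotic and DSS. Capitals mark matches to 2 motifs searched on both strands, the CDX motif TTTATG of the intestinal homeobox factors and the E-box CACCTG that SNAI and ZEB repressors bind. The sequences read 5′ to 3′ along the strand of the gene: Cldn2 at chrX:139800558-139800857 (plus strand), Cldn3 at chr5:134985964-134986263 (plus), Cdhr5 at chr7:141276737-141277036 (minus) and Epcam at chr17:87635729-87636028 (plus).
Cldn2: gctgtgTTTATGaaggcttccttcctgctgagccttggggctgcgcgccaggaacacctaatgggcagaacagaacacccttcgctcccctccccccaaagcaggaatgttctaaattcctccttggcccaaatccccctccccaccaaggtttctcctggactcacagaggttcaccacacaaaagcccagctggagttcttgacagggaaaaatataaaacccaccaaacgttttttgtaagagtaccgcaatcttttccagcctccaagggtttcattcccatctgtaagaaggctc
Cldn3: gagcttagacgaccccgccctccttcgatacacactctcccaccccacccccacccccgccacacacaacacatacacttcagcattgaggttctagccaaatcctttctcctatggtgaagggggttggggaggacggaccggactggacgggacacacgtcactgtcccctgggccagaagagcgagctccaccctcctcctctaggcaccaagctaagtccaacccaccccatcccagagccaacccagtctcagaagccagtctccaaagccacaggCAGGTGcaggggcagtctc
Cdhr5: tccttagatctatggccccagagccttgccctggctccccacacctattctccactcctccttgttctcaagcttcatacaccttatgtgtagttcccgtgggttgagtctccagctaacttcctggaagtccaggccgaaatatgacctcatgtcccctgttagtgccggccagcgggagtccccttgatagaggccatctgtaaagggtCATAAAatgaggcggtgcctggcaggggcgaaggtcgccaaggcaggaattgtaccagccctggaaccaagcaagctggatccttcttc
Epcam: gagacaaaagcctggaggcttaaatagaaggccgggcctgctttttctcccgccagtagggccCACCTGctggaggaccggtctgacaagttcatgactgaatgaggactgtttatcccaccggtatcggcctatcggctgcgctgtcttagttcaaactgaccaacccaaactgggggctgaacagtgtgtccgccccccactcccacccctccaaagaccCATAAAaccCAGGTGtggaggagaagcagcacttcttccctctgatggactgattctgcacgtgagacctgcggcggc
The Cldn2 window held a CDX match 244 bases before the start, and the Cdhr5 window 1 on the opposite strand, 39 bases before it. The Cldn3 window held the E-box 31 bases after the start. The Epcam window held a CDX match 28 bases and E-boxes 187 and 19 bases before the start. Among 29 windows of junction genes, CACCTG occurred in 13 (44.8%), in 10 genes, against 20.2% of all 32851 windows. TTTATG occurred in 6 (20.7%) against 11.9%, and the AP-1 motif TGANTCA in 4 (13.8%) against 7.81%. The Grainyhead motif AACNGGTT occurred in 1 (3.45%) against 2.09%, and the HNF4 motif CAAAGTCCA and the TCF motif CTTTGAT in 0, against 0.475% and 3.73%. No matches in the 4 printed windows overlap. These shares describe letters in a window, and no binding was measured.

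The widest contrast was between antibiotic with DSS (PP) and no named treatment (NN), taken as the mean of both genotypes. Per TMM-scaled library, 11 of the 31 junction genes fell and 2 rose, whereas relative to the epithelial reference genes 0 fell and 10 rose. Tests were edgeR quasi-likelihood tests, and a gene was called at a Benjamini-Hochberg adjusted p under 0.05 over all genes. Among all 16958 genes tested, 11.1% were called lower and 16.9% higher on the TMM scale. Relative to the epithelial reference genes, 1.67% of all genes were called lower and 43.2% higher. The median log2 fold change of the junction genes was -0.56, against 0.21 over all genes. The ranges of the 5 NN and 6 PP libraries did not overlap for 6 junction genes that were lower in PP and 1 that was higher, where 6.14% and 9.24% of all genes did so. Without the MCJ-deficient NN library 14 or the wild-type PP library 10, 8 genes were called in place of 13. With a term for libraries expressing Xist, 4 remained of those called lower (Cdhr5, Cldn3, Cldn7 and Cldn23) and 0 were called higher. As 4 of 5 NN and 0 of 6 PP libraries expressed Xist, the term can hardly be told apart from this contrast.

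Among the pore claudins, Cldn2, which forms channels for cations and water, rose. Its CPM in NN were 13.8, 15 and 29.2 in wild-type and 35.9 and 29.3 in MCJ-deficient libraries. In PP they were 53.6, 81.1 and 49.5 in wild-type and 53.4, 42.4 and 61.0 in MCJ-deficient libraries. Every PP library lay above every NN library. The log2 fold change was 1.17 (SE 0.28, adjusted p = 0.00455), and by genotype it was 1.67 (SE 0.37, adjusted p = 0.00447) in wild-type and 0.68 (SE 0.42, adjusted p = 0.352) in MCJ-deficient mice. The 7 crypt and stem cell markers summed to 23.9 to 49.9 CPM in NN libraries. In NP they summed to 42.9 to 98.1 CPM and in PP to 45.8 to 115. Their raw counts moved in different directions. Olfm4 had 0 counts in all 5 NN libraries and 5 to 246 in PP. Mki67 had 0 to 597 in NN and 677 to 1908 in PP, and Top2a 49 to 372 and then 193 to 2072. Sox9 had 346 to 956 in NN and 71 to 418 in PP. Lgr5 had 0 to 101 and then 0 to 55, Ascl2 0 to 52 and then 0 to 47, and Axin2 1 to 181 and then 5 to 100. The 10 colonocyte markers summed to between 9196 and 16513 CPM for NN, between 8734 and 14303 for NP and between 6421 and 10403 for PP. In raw counts, Guca2a, Phgr1 and Aqp8 ranged lower in PP than in NN without overlap. Car1, Slc26a3 and Fabp2 also ranged lower but overlapped. Slc9a3 and Ceacam1 ranged higher in PP, with overlap. For Car4 the NN range lay inside the PP range, and for Guca2b the PP range lay inside the NN range. The part of either list in the Cldn2 change was not tested. Cldn2 lies on the X chromosome, and with the Xist term its log2 fold change was 0.45 (adjusted p = 0.554). Cldn15, which also forms cation pores, had a log2 fold change of -0.56 (SE 0.38, adjusted p = 0.289) and overlapping ranges.

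**Figure D2:**
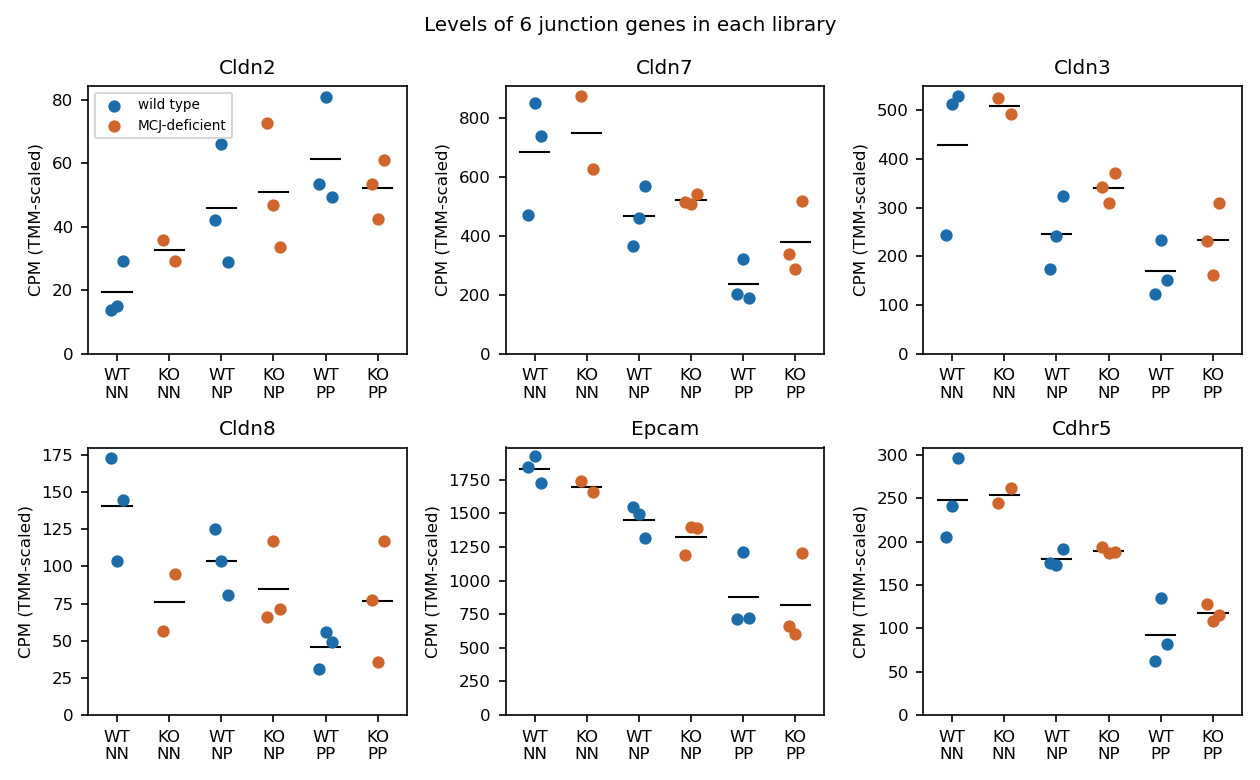
TMM-scaled CPM of 6 junction genes, 1 point per library and a bar at the group mean, for wild-type (blue) and MCJ-deficient (orange) mice in NN, NP and PP; each vertical axis starts at 0. Cldn2 lies higher in all 6 PP than in all 5 NN libraries, and Epcam and Cdhr5 lie lower in all 6, an order that does not hold for Epcam and Cdhr5 when libraries are scaled to epithelial reference genes.

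Of the sealing claudins, Cldn3 and Cldn8 fell on the TMM scale, and Cldn4 was not called (log2 fold change -0.86, SE 0.32, adjusted p = 0.054). Cldn3 CPM were 243, 513 and 530 in wild-type and 525 and 492 in MCJ-deficient NN libraries, against 123, 233 and 152 and then 232, 162 and 309 in PP. The groups overlapped only through the wild-type NN library 1, at 243 CPM, below the highest PP value. The log2 fold change of Cldn3 was -1.23 (SE 0.25, adjusted p = 0.00118). Cldn8, which seals against sodium in the distal colon, measured 173, 104 and 145 CPM in wild-type and 56.4 and 95.1 in MCJ-deficient NN libraries. In PP it measured 31.2, 56.2 and 49.1 CPM in wild-type and 77.5, 36.0 and 117 in MCJ-deficient libraries. The wild-type groups did not overlap and the MCJ-deficient groups did. Its log2 fold change was -0.80 (SE 0.28, adjusted p = 0.0409), made up of -1.63 (SE 0.39, adjusted p = 0.00639) in wild-type and 0.02 (SE 0.42, adjusted p = 1.0) in MCJ-deficient mice. Scaled to the epithelial reference genes, the Cldn8 change over both genotypes was 0.09 in log2. The difference of the MCJ effect on Cldn8 between PP and NP, 1.04 (SE 0.53), did not pass (adjusted p = 0.985), and that between PP and NN was not tested.

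Cldn1, a sealing claudin of stratified epithelia, had few counts. Its raw counts in NN were 0, 114 and 15 in wild-type and 0 and 0 in MCJ-deficient libraries. In NP they were 0, 0 and 114 in wild-type and 48, 50 and 14 in MCJ-deficient libraries. In PP they were 77, 13 and 69 in wild-type and 83, 339 and 138 in MCJ-deficient libraries. The wild-type ranges overlapped, while every MCJ-deficient NP and PP library had counts where those of NN had none. Against a floor of 3 counts over the MCJ-deficient NN group, which covers counting error only, Cldn1 was at least 130-fold higher in PP and at least 24.6-fold higher in NP. Library 23 held 339 of the 560 PP counts. Without it the PP bound was 77.8-fold, and without the NN library 13 or 14 it was 65.8-fold or 64.3-fold. The NP bound was 12.4-fold or 12.1-fold without those NN libraries. It was called over both genotypes (adjusted p = 0.0481) and lost the call in 8 of 11 runs that left out 1 library, with adjusted p up to 0.176. Markers of squamous epithelium, where Cldn1 is abundant, summed to 2.73 to 10.1 CPM in NN and 3.08 to 7.4 in PP, and their part in the Cldn1 counts was not tested.

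The remaining claudins were Cldn7, Cldn23 and Cldn12. Cldn7 CPM were 470, 848 and 737 in wild-type and 873 and 625 in MCJ-deficient NN libraries, against 203, 319 and 189 and then 337, 286 and 516 in PP. Only the MCJ-deficient PP library 24, at 516 CPM, reached into the NN range. The log2 fold change of Cldn7 was -1.25 (SE 0.22, adjusted p = 0.000353). Cldn23, a claudin of differentiated surface colonocytes, measured 124, 197 and 213 CPM in wild-type and 173 and 197 in MCJ-deficient NN libraries. In PP it measured 54.6, 86.8 and 54.9 and then 90.8, 52.3 and 122 CPM. All PP values lay below all NN values, the nearest being 122 and 124 CPM, and the log2 fold change was -1.26 (SE 0.25, adjusted p = 0.00118). Cldn12 had a log2 fold change of -0.33 (SE 0.24, adjusted p = 0.338).

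A share of the summed claudin level per kilobase does not depend on how libraries are scaled. In NN, Cldn3 made up 35.2 ± 4.54% and Cldn7 35.4 ± 2.82% of this sum (SD, n = 5), followed by Cldn4 at 10.5 ± 3.03% and Cldn23 at 9.6 ± 1.09%. In PP the shares were 32.8 ± 1.5% for Cldn3, 32.4 ± 4.39% for Cldn7, 12.0 ± 4.31% for Cldn4 and 8.49 ± 0.543% for Cldn23 (SD, n = 6). Each of these 4 changed by less than the range of its libraries. The Cldn2 share was 0.591, 0.405 and 0.791% in wild-type and 0.904 and 0.882% in MCJ-deficient NN libraries. With DSS alone it was 2.59, 3.34 and 1.13% in wild-type and 2.79, 2.0 and 1.25% in MCJ-deficient libraries. After antibiotic and DSS it was 5.04, 4.46 and 4.11% in wild-type and 2.85, 3.44 and 2.39% in MCJ-deficient libraries. All 12 treated libraries lay above all 5 NN libraries, and the 3 wild-type PP libraries lay above all others. Cldn8 shares overlapped over both genotypes, from 2.01 to 10.5% in NN and from 4.12 to 6.45% in PP, and also in wild-type mice. In MCJ-deficient mice they did not, at 2.01 and 4.04% in NN against 5.84, 4.12 and 6.45% in PP. Shares carry no test and are given as a description.

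**Figure D3:**
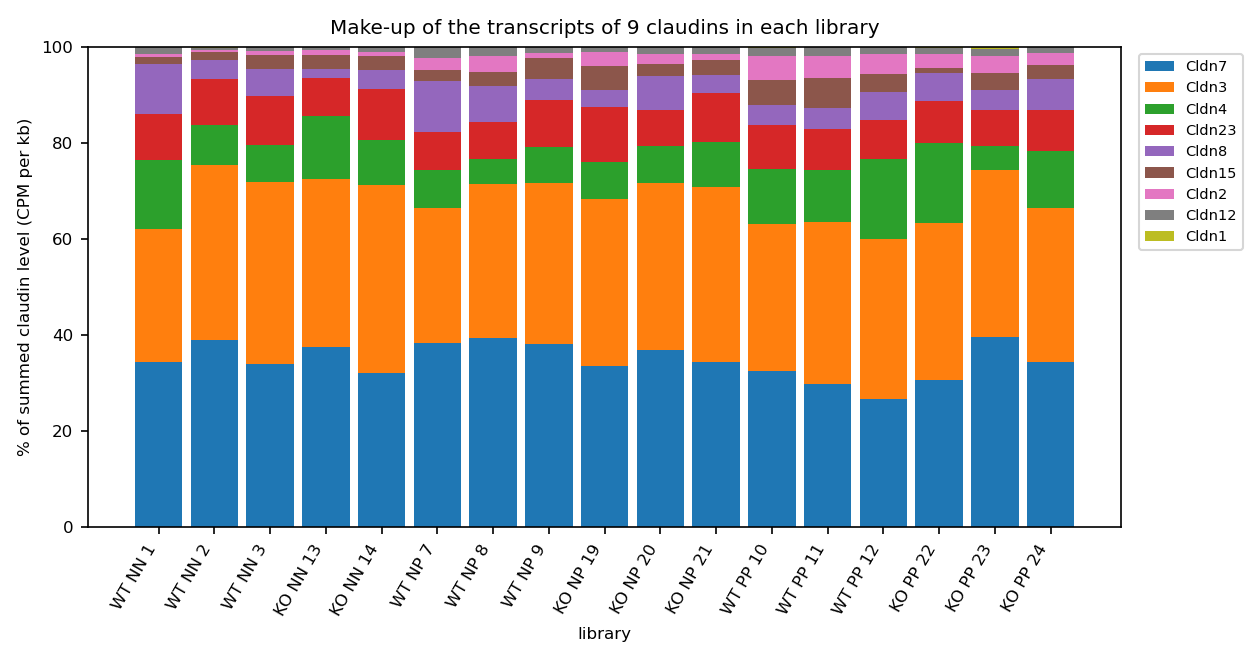
Each bar is a library and shows how the summed level of 9 claudins, in CPM per kilobase of exon, divides among them in percent. Cldn7, Cldn3, Cldn4 and Cldn23 fill most of every bar, and the Cldn2 segment is below 1% in NN and between 1.13 and 5.04% in NP and PP.

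Among the other membrane proteins of the tight junction, F11r (junctional adhesion molecule A) and Marveld3, a four-span protein related to occludin, fell on the TMM scale. F11r measured 243, 235 and 199 CPM in wild-type and 235 and 258 in MCJ-deficient NN libraries, against 134, 181 and 126 and then 161, 130 and 225 in PP. Only the MCJ-deficient PP library 24 reached into the NN range, and the log2 fold change was -0.57 (SE 0.17, adjusted p = 0.0216). Marveld3 measured 21.8, 34.3 and 24.1 CPM in wild-type and 23.2 and 25.2 in MCJ-deficient NN libraries. Its PP values of 8.29, 20.2, 13.4, 11.9, 9.97 and 12.5 CPM all lay below these, and the log2 fold change was -1.01 (SE 0.23, adjusted p = 0.00335). Occludin (Ocln) had a log2 fold change of -0.41 (SE 0.25, adjusted p = 0.225), and tricellulin (Marveld2), which seals the corners where 3 cells meet, had -0.60 (SE 0.30, adjusted p = 0.148). F11r was the least stable of the called membrane proteins, losing its call in 5 of 11 runs that left out 1 library (adjusted p up to 0.0956).

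Of the plaque proteins, Tjp3 (ZO-3) fell on the TMM scale while Tjp1 (ZO-1) and cingulin (Cgn) were not called. Tjp3 measured 59.5, 56.4 and 74.4 CPM in wild-type and 77.7 and 87.1 in MCJ-deficient NN libraries, against 33.0, 50.3 and 45.3 and then 64.6, 23.6 and 29.3 in PP. The MCJ-deficient PP library 22 lay inside the NN range. The log2 fold change of Tjp3 was -0.82 (SE 0.27, adjusted p = 0.0336), and the call was lost in 7 of 11 runs that left out 1 library. Tjp1 had 0.10 (SE 0.35, adjusted p = 0.887) and Cgn -0.45 (SE 0.29, adjusted p = 0.265). Mylk had a log2 fold change of 0.02 (SE 0.25, adjusted p = 1.0). Mylk is also expressed by smooth muscle, whose 8 markers summed to 37.0 to 138 CPM in NN and 53.1 to 550 in PP, and their part in the Mylk level was not tested.

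None of the 4 adherens junction genes was called on the TMM scale, whereas 2 were called higher on the epithelial scale (Ctnna1 and Ctnnb1, values below). E-cadherin (Cdh1) measured 235, 86.6 and 107 CPM in wild-type and 189 and 250 in MCJ-deficient NN libraries. In PP it measured 69.8, 137 and 89.9 and then 203, 83.8 and 91.8 CPM, within a spread that overlapped widely (log2 fold change -0.67, SE 0.29, adjusted p = 0.0977). Alpha-catenin (Ctnna1), which couples cadherins to actin, had 0.51 (SE 0.24, adjusted p = 0.117). Beta-catenin (Ctnnb1), which also carries Wnt signals to the nucleus, had 0.16 (SE 0.16, adjusted p = 0.524), and p120-catenin (Ctnnd1) had -0.44 (SE 0.24, adjusted p = 0.176). The cadherin and its catenins thus took fitted values on both sides of 0 on the TMM scale.

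In the desmosome, 1 of 6 genes was called on the TMM scale, the plaque protein plakophilin 3 (Pkp3). Pkp3 measured 24.7, 30.7 and 23.4 CPM in wild-type and 28.7 and 30.0 in MCJ-deficient NN libraries. Its PP values of 9.88, 20.7, 15.6, 18.2, 15.2 and 18.9 CPM all lay below these, with a log2 fold change of -0.76 (SE 0.24, adjusted p = 0.0228). Plakoglobin (Jup), shared by desmosomes and adherens junctions, had -0.72 (SE 0.30, adjusted p = 0.0882). The linker desmoplakin (Dsp) had -0.36 (SE 0.32, adjusted p = 0.429) and the cadherin Dsg2 -0.25 (SE 0.22, adjusted p = 0.423). The cadherin Dsc2 had 0.45 (SE 0.23, adjusted p = 0.157) and plakophilin 2 (Pkp2) 0.03 (SE 0.28, adjusted p = 0.986).

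Of the 4 lateral and brush border adhesion molecules, 3 fell on the TMM scale, among them Cdhr5, which had the smallest p of the 31 genes. Epcam measured 1843, 1924 and 1723 CPM in wild-type and 1740 and 1656 in MCJ-deficient NN libraries, 1548, 1492 and 1316 and then 1187, 1401 and 1391 in NP, and 714, 1211 and 720.0 and then 661, 601 and 1203 in PP. No treated library reached the NN range. The log2 fold change of Epcam between PP and NN was -1.05 (SE 0.20, adjusted p = 0.000862). Cdhr5 measured 205, 241 and 297 CPM in wild-type and 245 and 262 in MCJ-deficient NN libraries. It measured 175, 173 and 192 and then 194, 187 and 188 CPM in NP, and 62.0, 135 and 81.7 and then 128, 109 and 116 CPM in PP. The 3 conditions did not overlap at all for Cdhr5, whose log2 fold change between PP and NN was -1.26 (SE 0.19, adjusted p = 7.94e-05). Cdhr2 measured 166, 130 and 145 CPM in wild-type and 124 and 152 in MCJ-deficient NN libraries, against 45.9, 88.7 and 63.9 and then 96.4, 65.2 and 45.6 in PP. Its PP values all lay below its NN values, with a log2 fold change of -1.07 (SE 0.21, adjusted p = 0.000969). Cdh17, the liver-intestine cadherin, had 0.09 (SE 0.24, adjusted p = 0.842).

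By genotype, 8 junction genes were called lower and 1 higher between PP and NN in wild-type mice on the TMM scale, where 7.31% of all genes were called lower and 12.8% higher. On the epithelial scale 0 were called lower and 8 higher in wild-type mice, where 34.0% of all genes were called higher. The 8 called lower on the TMM scale were Cdhr5 (-1.41), Cldn7 (-1.53), Cldn8 (-1.63), Cldn23 (-1.44), Cdhr2 (-1.15), Cldn3 (-1.34), Epcam (-1.05) and Marveld3 (-0.93, log2 fold changes). In MCJ-deficient mice 3 were called lower on the TMM scale, where 3.77% of all genes were: Cdhr5 (-1.11), Epcam (-1.05) and Cdhr2 (-1.0). On the epithelial scale 0 were called lower and 2 higher in MCJ-deficient mice (Cldn1 and Cldn2), where 13.4% of all genes were called higher. With the Xist term 0 were called in MCJ-deficient mice and 6 lower in wild-type mice. Xist counts were 7176 and 7950 in MCJ-deficient NN and 9, 1 and 0 in MCJ-deficient PP libraries. In MCJ-deficient mice the term therefore cannot be told apart from the contrast, and nothing is drawn from the lost calls. The NN group held 2 libraries in that genotype and 3 in the wild type. Without the wild-type PP library 10 the wild-type count was 5. The MCJ-deficient count was 0 without the NN library 13, the NN library 14 or the PP library 23, and 5 without the PP library 24.

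Scaling each library to the 18 epithelial reference genes asks how junction transcripts moved relative to other epithelial transcripts. The scaling factors left out Grhl2, which had 0 counts in 1 NN library. On the TMM scale, 13 of these 18 reference genes were themselves lower in PP than in NN, with a median log2 fold change of -0.90. On the epithelial scale the median of all genes was 1.20, and that of the junction genes 0.38. Of the 31, 10 were called higher (32.3%, against 43.2% of all genes) and 0 lower (against 1.67%). The largest among genes with counts in every library was Cldn2, with a log2 fold change of 2.10 (SE 0.33, adjusted p = 0.000113). Its levels in CPM on the epithelial scale were 9.65, 9.96 and 22 in wild-type and 27.9 and 21.2 in MCJ-deficient NN libraries, against 102, 86.4 and 74.3 and then 65.7, 79.3 and 69.6 in PP. The lowest PP library was thus more than 2 times the highest NN library. The catenins Ctnna1 (1.49, SE 0.30, adjusted p = 0.000911) and Ctnnb1 (1.13, SE 0.24, adjusted p = 0.00115) and the desmosomal genes Dsc2 (1.40), Pkp2 (0.96) and Dsg2 (0.68) were also called higher. So were Cdh17 (1.05), Mylk (0.99), Tjp1 (0.97) and Cldn1. Epcam on this scale measured 1293, 1275 and 1299 CPM in wild-type and 1355 and 1195 in MCJ-deficient NN libraries, against 1362, 1290 and 1082 and then 814, 1122 and 1370 in PP, and the groups overlapped. The macrophage and neutrophil sums were higher in every PP than in every NN library, and their part in these values was not tested.

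**Figure D4:**
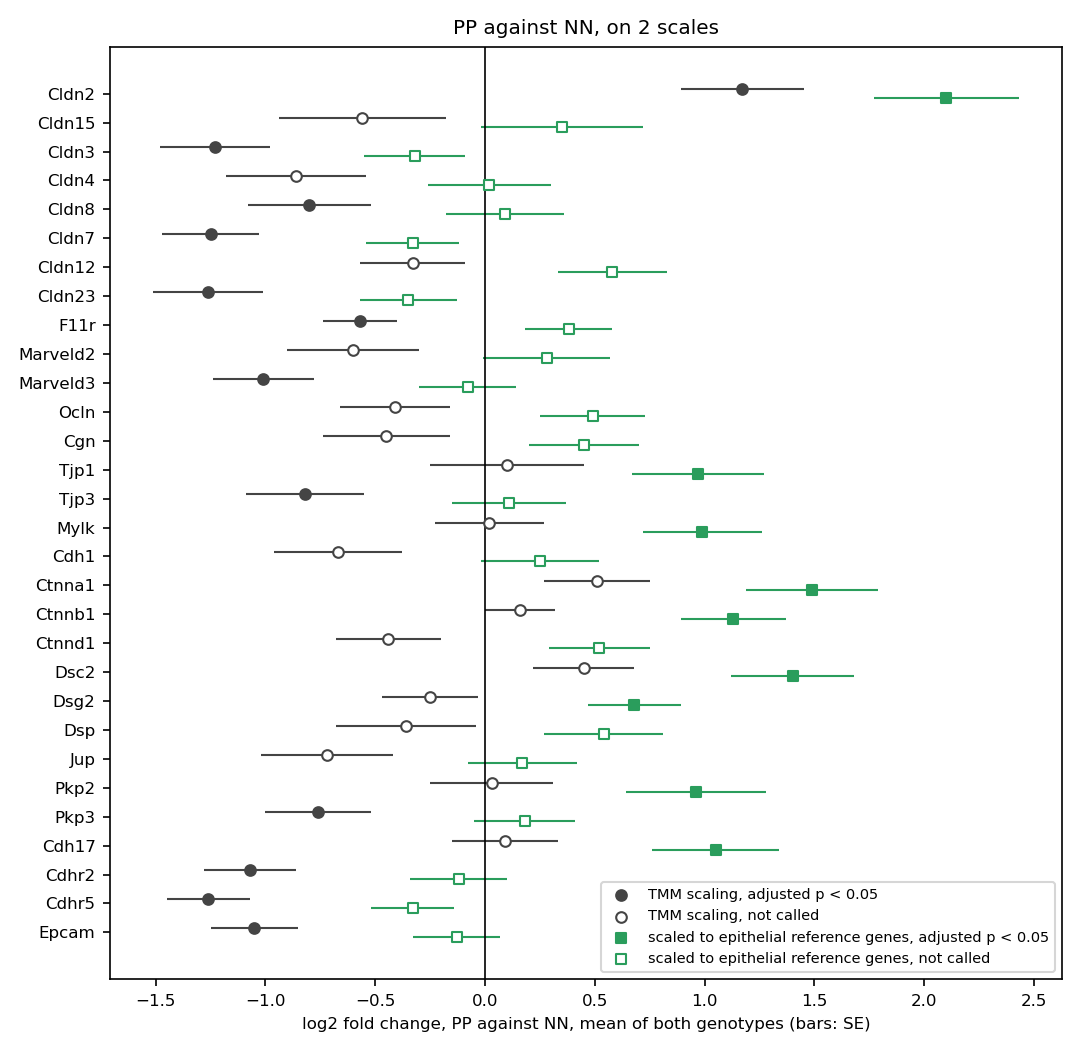
Log2 fold changes of 30 junction genes between PP and NN (mean of both genotypes, bars SE). TMM scaling is in grey circles and scaling to the epithelial reference genes in green squares. Filled symbols passed the adjusted p of 0.05. All points lie further right on the epithelial scale, where Cldn2 at 2.10 is the rightmost and no gene is called lower. Cldn1 is left out because 1 group holds 0 counts.

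With DSS alone (NP against NN), 0 of the 31 junction genes was called over both genotypes with edgeR, where 5.23% of all genes were. At an unadjusted p under 0.05 there were 7, and DESeq2 called 3 (Cldn1 and Cldn2 higher, Cldn4 lower). The share of all genes at that unadjusted p or called by DESeq2 is not given here, so nothing is drawn from these counts. The median log2 fold change was -0.17, against 0.11 over all genes. The Cldn2 CPM with DSS alone were 42.2, 66.3 and 28.9 in wild-type and 72.7, 46.9 and 33.7 in MCJ-deficient libraries, which overlapped the NN values. Cldn2 had a log2 fold change of 0.95 (SE 0.28, adjusted p = 0.0596). On the epithelial scale it was the only junction gene called, at 1.31 (SE 0.32, adjusted p = 0.0186), where 5.74% of all genes were called higher. Cldn4 measured 183, 166 and 154 CPM in wild-type and 284 and 170 in MCJ-deficient NN libraries, against 70.4, 58.1 and 107 and then 109, 98.6 and 138 in NP. On the TMM scale all 6 NP values lay below the NN values, with a log2 fold change of -1.04 (SE 0.32, adjusted p = 0.0722). On the epithelial scale the Cldn4 ranges overlapped, at 110 to 221 CPM in NN and 56.6 to 132 in NP. The share of all genes separated between NP and NN was not counted. Cldn3 had -0.69 (SE 0.25, adjusted p = 0.125), Cldn23 -0.64 (SE 0.25, adjusted p = 0.167) and Cldn7 -0.54 (SE 0.22, adjusted p = 0.181). By genotype 0 were called with edgeR in wild-type mice (2.44% of all genes; 4 junction genes at an unadjusted p under 0.05; 1 by DESeq2) and 0 in MCJ-deficient mice (2.08%; 1 at an unadjusted p under 0.05; 1 by DESeq2). Without the NN library 1 or 3 or the NP library 9 of wild-type mice, or the NP library 21 of MCJ-deficient mice, 1 gene was called over both genotypes; without the NN library 3, 1 was also called in wild-type mice.

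Between antibiotic with DSS and DSS alone (PP against NP), 4 of 31 junction genes fell over both genotypes on the TMM scale, where 3.76% of all genes were called lower. They were Cdhr5 (log2 fold change -0.82, SE 0.18, adjusted p = 0.00578), Epcam (-0.71, SE 0.19, adjusted p = 0.0241), Cldn7 (-0.71, SE 0.21, adjusted p = 0.0342) and Cdhr2 (-0.65, SE 0.20, adjusted p = 0.0443). Cldn7 measured 366, 459 and 569 CPM in wild-type and 513, 507 and 541 in MCJ-deficient NP libraries, and Cdhr2 measured 116, 98.1 and 122 and then 116, 86.8 and 99.1. Both overlapped with the PP values given above, as did Epcam through the wild-type PP library 11 and the MCJ-deficient PP library 24. On the epithelial scale 0 were called lower and 1 higher, Ctnnb1 at 0.69 (SE 0.22, adjusted p = 0.0312), where 20% of all genes were called higher. Cldn2 had 0.23 (SE 0.26, adjusted p = 0.685) between PP and NP on the TMM scale. In wild-type mice 1 was called lower, Cdhr5 (-0.96, SE 0.25, adjusted p = 0.0378), where 0.926% of all genes were. In MCJ-deficient mice 0 were called with edgeR (1.73% of all genes; 3 junction genes at an unadjusted p under 0.05; 0 by DESeq2), and 1 without the PP library 24.
The count over both genotypes was 1 without the NP library 20 or 21 or the PP library 23 of MCJ-deficient mice, or the PP library 10 or 12 of wild-type mice. It was 2 without the NP library 19 of MCJ-deficient mice or the NP library 7 or 8 of wild-type mice, and Cdhr5 kept its call in all 12 runs. The wild-type count was 5 without the PP library 11 and 0 without any other of its 6 libraries.

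MCJ deficiency was compared with the wild type within each condition, and no junction gene was called with edgeR. In NN 0 of 31 passed, as did 0% of all genes; 2 junction genes had an unadjusted p under 0.05, and DESeq2 called 1 (Cldn8, lower). In NP 0 of 31 passed, where 1.00% of all genes did; 2 had an unadjusted p under 0.05 and DESeq2 called 0. In PP 0 of 31 passed, as did 0% of all genes. There, 1 had an unadjusted p under 0.05 and DESeq2 called 0. With 0% of all genes called in NN and PP, Dnajc15 itself was not called in either. Its PP counts were 827, 817 and 939 in wild-type and 21, 22 and 105 in MCJ-deficient libraries. The lack of calls therefore does not show that junction genes were unchanged. The medians of the junction genes were 0.20, 0.11 and 0.25 in NN, NP and PP, against 0.08, 0.03 and 0.01 over all genes. In NN, the Cldn8 values listed above gave a log2 fold change of -0.95 (SE 0.32, adjusted p = 0.572), with both MCJ-deficient libraries below all 3 wild-type libraries. Pkp2 measured 12.6, 11.7 and 30.5 CPM in wild-type and 34.9 and 31.8 in MCJ-deficient NN libraries (0.81, SE 0.47, adjusted p = 0.766). Cldn2 had 0.70 (SE 0.40, adjusted p = 0.766) and Ctnna1 0.71 (SE 0.36, adjusted p = 0.697). In NN, 5 junction genes lay higher without overlap in MCJ-deficient libraries (Cldn2, Pkp2, Tjp3, Ctnnb1 and Dsg2) and 1 lower (Cldn8). Ctnnb1 measured 226, 196 and 273 CPM in wild-type and 308 and 315 in MCJ-deficient libraries. Dsg2 measured 97.4, 67.9 and 85.2 and then 102 and 139 CPM. In NP and PP 1 each lay lower, Marveld3 and Mylk. The share of all genes without overlap was not counted, and so few libraries can separate without a difference.
In NP, Marveld3 measured 26.2, 20.3 and 25.5 CPM in wild-type and 16.3, 14.3 and 14.8 in MCJ-deficient libraries. The groups did not overlap, and the log2 fold change was -0.66 (SE 0.24, adjusted p = 0.375). Ctnna1 had 0.62 (SE 0.27, adjusted p = 0.518), Cldn4 0.55 (SE 0.26, adjusted p = 0.563) and Cldn23 0.51 (SE 0.29, adjusted p = 0.67). In PP, Marveld2 measured 6.13, 14.9 and 9.86 CPM in wild-type and 20.8, 12.6 and 27.8 in MCJ-deficient libraries, with overlap (1.02, SE 0.44, adjusted p = 0.938). Cldn8 had 0.79 (SE 0.46, adjusted p = 0.961), Cldn7 0.71 (SE 0.36, adjusted p = 0.942) and Mylk -0.68 (SE 0.32, adjusted p = 0.942). Mylk measured 20.2, 26.2 and 32.0 CPM in wild-type PP libraries and 19.8, 14.5 and 13.8 in MCJ-deficient ones, without overlap. The fitted value of Cldn8 was below 0 in NN and above 0 in PP, and neither was called.
The difference of the MCJ effect between conditions was called for 0 of 31 between NP and NN and for 0 between PP and NP, as for 0% of all genes in each. At an unadjusted p under 0.05 there were 1 (Cldn1) and 0, and DESeq2 called 1 (Cldn1) and 0.

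**Figure D5:**
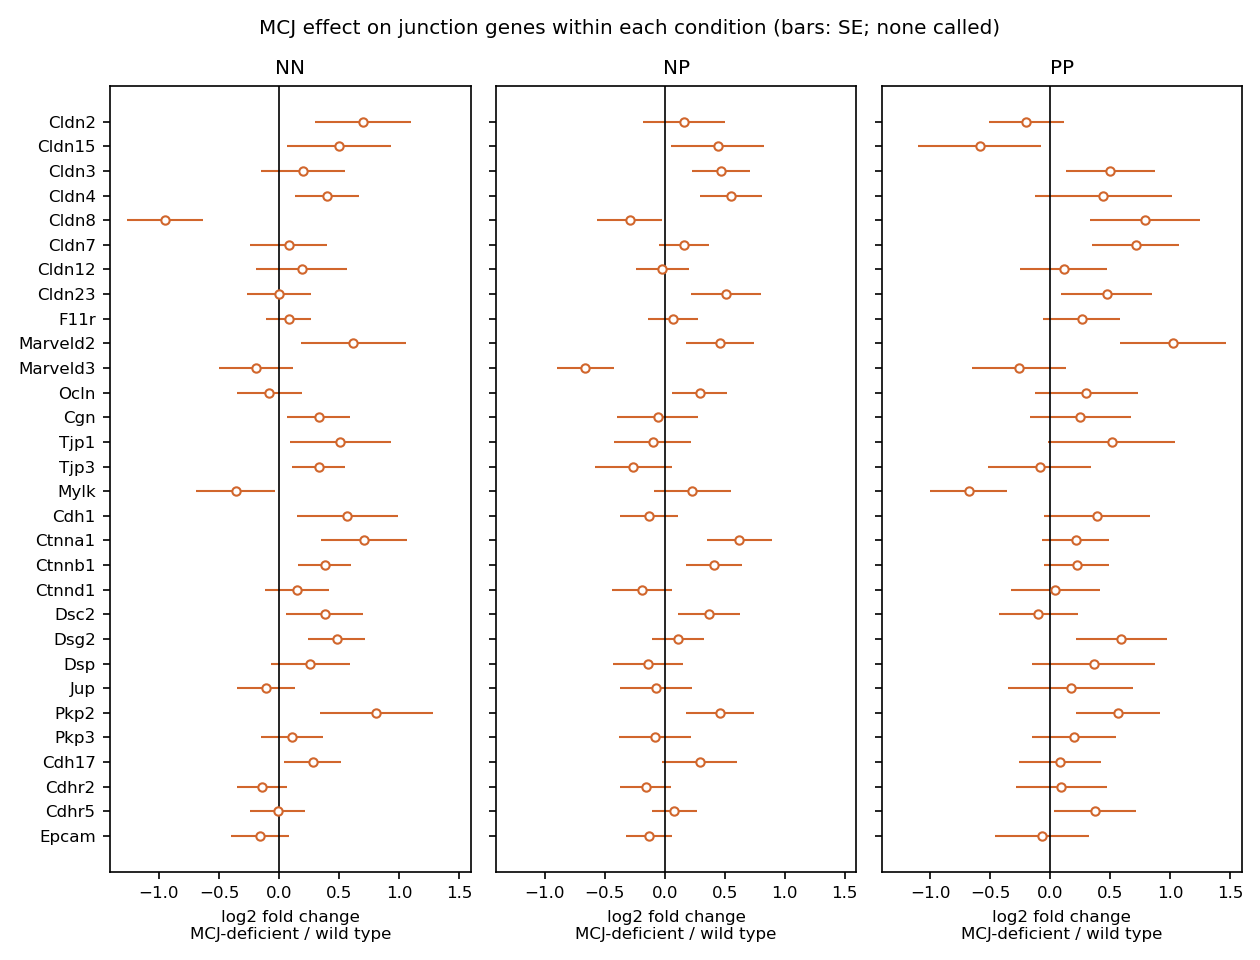
Log2 fold changes of 30 junction genes between MCJ-deficient and wild-type mice in NN, NP and PP, fitted within each condition with TMM scaling (bars SE); open circles mark that none was called. Values run from -0.95 (Cldn8, NN) to 1.02 (Marveld2, PP), and Cldn1 is left out because 1 group holds 0 counts.

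A second list held 58 other junction genes in the tables, of which 45 passed the filter in the fit of all libraries. Between PP and NN over both genotypes, 11.1% of all genes were called lower and 16.9% higher on the TMM scale. Of this list 12 fell and 8 rose (44.4% called), with a median log2 fold change of -0.37. The 4 with the smallest p all fell: envoplakin (Evpl, -2.53), Spint2, an inhibitor of membrane serine proteases that protects Epcam from cleavage (-1.56), the brush border protein Calml4 (-1.31) and the polarity protein Crb3 (-1.51). On the epithelial scale 16 of the 45 were called higher and 3 lower, where 43.2% of all genes were called higher and 1.67% lower. With DSS alone 2 rose and 2 fell on the TMM scale, where 5.23% of all genes were called. On the epithelial scale 3 rose and 0 fell, where 5.74% of all genes were called higher. The smallest p on the TMM scale belonged to Esam (2.20), an adhesion molecule of endothelium, Evpl (-1.27), Spint2 (-0.77) and the kinase Rock1 (0.81). Endothelial markers summed to 4.15 to 32.8 CPM in NN and 28.9 to 77.9 in NP, and their part in the Esam change was not tested. Between PP and NP 5 fell and 1 rose on the TMM scale, where 3.76% of all genes were called lower and 7.06% higher. Scaled to the epithelial reference genes, 0 fell and 7 of the 45 rose, where 20% of all genes were called higher. The smallest p on the TMM scale belonged to Calml4 (-0.84), Spint2 (-0.78), Evpl (-1.26) and Crb3 (-0.82). No gene of this list was called for MCJ deficiency with edgeR in NN (42 tested; 5 at an unadjusted p under 0.05), NP (43; 1) or PP (40; 3).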

How the data were processed

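Values were whole-number read counts, deposited by the authors without normalization in 1 table for each of 3 conditions and keyed by NCBI gene number. The submitters' processing notes name CASAVA 1.8.2, FastQC, Trim Galore, STAR 2.5.4 and DESeq2, and the mm10 build; the counting program and strand setting were not given in the sources used here, so antisense and overlapping genes may share counts. Symbols were joined from RefSeq and exon lengths from GENCODE M21; unnamed gene numbers held 1.39 to 7.32% of a library's counts.

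MCJ effects were fitted within each table, and all other contrasts in 1 fit of 17 libraries, with the edgeR 4.0.16 quasi-likelihood test (filterByExpr, TMM factors; R 4.3.3), tested on simulated data. Calls required a Benjamini-Hochberg adjusted p below 0.05 across every gene in the fit. Alternatives were RLE factors, no filter, DESeq2 1.42.0, scaling to the median ratio of epithelial reference genes and leaving out mitochondrial genes. Others were the other choice of libraries in the fit and leaving out each library. The median ratio used the 18 reference genes except Grhl2, which had 0 counts in 1 NN library. A term for Xist (at least 1000 counts) and scaling to Krt8, Krt18 and Krt19 were chosen after seeing the data. So were the Cldn1 bounds without single libraries. The members and lists were chosen with earlier results of these data known. All 31 members are named; values per library are given for the 12 called with the smallest adjusted p, for Epcam, Cdh1 and Cldn8, and for members named for non-overlapping or 0 values, chosen after those were seen. Of the other junction genes, the 4 called with the smallest p are named. Intervals and floors cover counting error only.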

Additional observations from a re-analysis of the deposited data

How the results depend on the processing

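The 8 genes Cdhr5, Cldn7, Epcam, Cdhr2, Cldn23, Cldn3, Marveld3 and Cldn2 kept their call between PP and NN over both genotypes in all 11 runs that left out 1 library. Cldn1, Cldn8, Tjp3, F11r and Pkp3 lost it in 8, 7, 7, 5 and 4 of them.

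Leaving out 1 library gave these ranges of junction genes called: between PP and NN 8 to 14 over both genotypes (1 to 3 higher, 7 to 13 lower), 5 to 11 in wild-type and 0 to 5 in MCJ-deficient mice; between PP and NP 1 to 6 over both (0 to 1 higher, 1 to 6 lower), 0 to 5 in wild-type and 0 to 1 in MCJ-deficient mice; between NP and NN 0 to 1 over both and 0 to 1 in wild-type mice.

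Scaling to the epithelial reference genes changed the calls to 10 higher and 0 lower between PP and NN, to 1 higher and 0 lower (1 in all) between PP and NP, with 0 in wild-type mice, and to 1 between NP and NN. Log2 fold changes that turned positive between PP and NN were 0.09 for Cldn8, 0.11 for Tjp3, 0.38 for F11r and 0.18 for Pkp3 over both genotypes and 0.03 for Marveld3 in wild-type mice. Scaling to Krt8, Krt18 and Krt19 alone gave 14 higher and 0 lower between PP and NN, 0 between PP and NP (0 lower, and 0 in wild-type mice), and 6 between NP and NN, with 2 in wild-type mice. Over both genotypes the values that turned positive between PP and NN were then 0.32 for Cldn8, 0.40 for Tjp3, 0.63 for F11r, 0.22 for Marveld3, 0.46 for Pkp3, 0.12 for Epcam and 0.15 for Cdhr2. In wild-type mice they were 0.25 for Cldn3, 0.04 for Cldn7, 0.12 for Cldn23, 0.59 for Marveld3, 0.43 for Epcam, 0.30 for Cdhr2 and 0.08 for Cdhr5. Between NP and NN they were 0.05 for Cldn3, 0.19 for Cldn7 and 0.08 for Cldn23. Both scalings divide by transcripts that were themselves lower in PP. Counts under keratin scaling, the Xist term and DESeq2, and counts at an unadjusted p under 0.05, stand without the share of all genes there. No comparison with all genes is drawn from them.

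With the Xist term, 4 genes were called between PP and NN (0 higher, 4 lower) and 0 in MCJ-deficient mice, and 2 between PP and NP (2 lower). The Cldn2 change between NP and NN in MCJ-deficient mice was then -0.02. Both MCJ-deficient NN libraries expressed Xist, but of the NP libraries of that genotype only library 21 did, and none in PP. The term was estimated only from the wild-type NN and MCJ-deficient NP groups, which held libraries of both kinds. It thus hardly separates Xist from treatment in MCJ-deficient mice. DESeq2 called 1 gene for MCJ deficiency in NN, 1 in each genotype and 3 over both between NP and NN, 2 between PP and NP in wild-type mice, 5 between PP and NN in MCJ-deficient mice, and 1 for the difference of the MCJ effect between NP and NN. RLE factors gave 1 between PP and NN in MCJ-deficient mice, and no filter gave 2 between NP and NN. With only the libraries of the contrast, 1 gene was called between NP and NN over both genotypes, 1 in MCJ-deficient mice, and 0 between PP and NP in wild-type mice. Without mitochondrial genes 1 was higher between PP and NN. Except where given above, the cause was not tested. No paired analysis was made. Library numbers differ in every group. Some mouse numbers recur between the MCJ-deficient NN and NP labels, which do not say whether they name the same mice.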
